A study of Mus musculus with 4 samples.

Results

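The 41 genes described here encode proteins of the small-subunit processome, the large assembly that folds and cuts the precursor of the small ribosomal subunit, together with 3 abundant proteins of the nucleolus. They were taken by name from a list of ribosome biogenesis genes, and all 41 were found among the 51826 gene identifiers of the count table. Every one of them passed the filter on low counts, so that all 41 were among the 15467 genes tested. The cells were C2C12, an established line of mouse muscle precursors that divide in growth medium and fuse into myotubes once differentiation is induced. Kept in growth medium, they were given recombinant GDF10, a secreted TGF-beta family ligand, or its vehicle. RNA was taken 6 h later, with 2 libraries for GDF10 and 2 for vehicle. The labels give no dose and name no genotype or passage. They call the libraries of a group biological replicates without saying how the cultures were kept apart, so p-values here reflect how far these 4 libraries differ, which may be partly technical. RNA was measured by sequencing and is given as counts per gene and as CPM, a gene's count relative to the scaled total of its library.

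Total counts were 29944193 and 35057429 in the GDF10 libraries, against 35597310 and 29641165 in the vehicle libraries, and the lowest count of any of the 41 genes in any library was 506. The labels name C2C12 cells throughout except in 1 protocol, which speaks of longissimus dorsi muscle. All 8 myoblast markers examined were detected, with summed levels of 2430 to 2457 CPM in the GDF10 libraries and 2360.5 to 2377.5 CPM in the vehicle libraries. The 10 markers of mature muscle fibres summed to 93.9 to 94.0 CPM with GDF10 and 81.6 to 86.9 CPM with vehicle, mostly Actn3. Over the 4 libraries Atp2a1 had 244 to 354 counts, Ckm 131 to 181, Mb 47 to 92 and Myh1 30 to 76. Myh2, Myh7, Pvalb and Mybpc2 had at most 18. The fast myosin gene Myh4 had 0 counts in both GDF10 libraries and 4 and 0 counts in the vehicle libraries. The 6 blood and immune markers summed to 3.39 to 3.44 CPM with GDF10 and 3.62 to 4.73 CPM with vehicle. Both beta globin genes and Cd3e had 0 counts throughout and Ptprc at most 2, while Cd68 had 81 to 122 counts and Lyz2 19 to 45. The 4 endothelial markers summed to 2.30 to 2.87 CPM with GDF10 and 2.16 to 2.44 CPM with vehicle. The 5 fibroblast markers summed to 89.6 to 93.7 CPM with GDF10 and 87.3 to 102.1 CPM with vehicle. Nearly all of this was Pdgfra, at 1760 to 2195 counts, and Dcn, at 922 to 1194, while Lum, Col15a1 and Thy1 had at most 2. The 4 adipocyte markers, with Adipoq at 0 counts throughout, summed to 17.9 to 19.3 CPM over all libraries.

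Ribosomal RNA of the small subunit is made by RNA polymerase I as part of a long precursor, on which the processome assembles while transcription is still under way. Preformed modules bind in turn: UTP-A first, then the snoRNP that carries the U3 guide RNA and the UTP-B complex, and later factors that cut, modify and remodel the RNA. The genes for these proteins are known to be driven together by growth signals and by the transcription factor MYC, and dividing myoblasts need them to make ribosomes.

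After 6 h with GDF10, Krr1 was higher and no other of the 41 genes passed the test. Krr1, an RNA-binding processome protein with a KH domain that is needed for small-subunit maturation in yeast, rose 1.94-fold. The other 40 genes, which code for the proteins that work beside it, had log2 fold changes of -0.29 to 0.17. By edgeR's quasi-likelihood test, with a Benjamini-Hochberg adjusted p under 0.05 as the threshold, 1 of the 41 genes was higher and 0 were lower, where 0.0840% of all genes tested were called higher and 0.0776% lower. In bulk RNA a change in the number of cells that express a gene and a change in RNA per cell cannot be told apart.

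**Figure D1:**
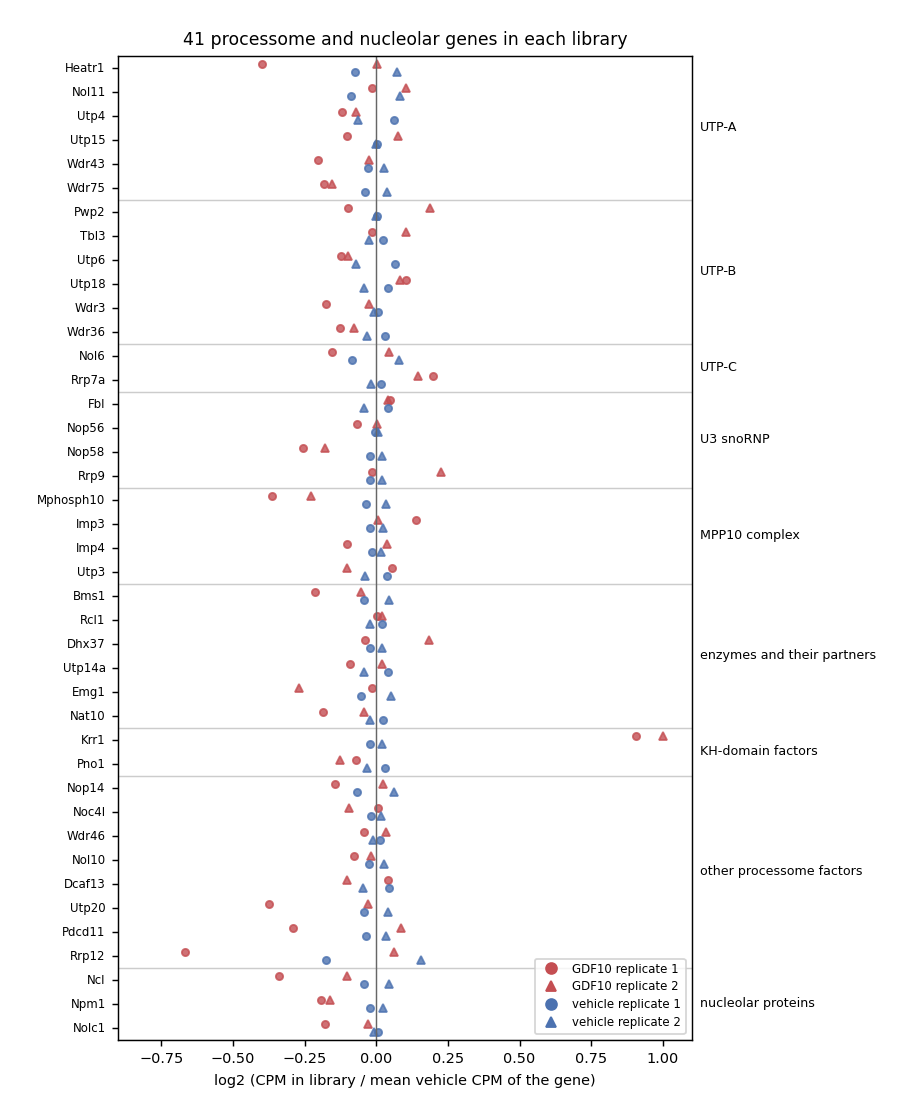
Level of each of the 41 genes in each library, as the log2 ratio to the gene's mean vehicle CPM; red symbols are GDF10 libraries, blue symbols vehicle libraries, circles replicate 1 and triangles replicate 2. Both GDF10 libraries of Krr1 stand apart on the right, while most other genes lie near 0 and GDF10 replicate 1 often lies furthest to the left.

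Krr1 (ENSMUSG00000063334; mm10 chromosome 10, 111972664 to 111988432, plus strand) had 1672 and 2075 counts in the GDF10 libraries, against 1046 and 893 counts in the vehicle libraries. Scaled for depth, it stood at 55.8 and 59.5 CPM with GDF10 and at 29.3 and 30.2 CPM with vehicle. The groups did not overlap, and the gap between them was many times the gap between libraries of one group. The means were 57.7 ± 2.64 CPM with GDF10 and 29.7 ± 0.630 CPM with vehicle (SD, n = 2 each). The log2 fold change was 0.96 with a standard error of 0.09 and a 95% interval of 0.74 to 1.17 (adjusted p = 0.0149 in edgeR's quasi-likelihood test). It was higher in 2 of 2 GDF10 libraries. The adjusted p was 0.0784 without vehicle replicate 1, 0.0570 in limma-voom and 0.0587 in edgeR with non-robust dispersions, so that the call was lost in these 3 of 17 alternatives. Over all 17 the adjusted p ran from 1.29e-10 to 0.0784 and the log2 fold change from 0.90 to 1.03.

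The lower bound of the Krr1 interval, 0.74, lay above the upper bound of every other gene of the set, the highest of which was 0.55. Within the libraries, Krr1 counts were 0.824 and 0.914 of the counts of Pno1 with GDF10, against 0.403 and 0.434 with vehicle. Pno1, the other KH-domain factor, is known in yeast to bind the precursor near the end of the small-subunit RNA and to work with the nuclease that makes the last cut. It stood at 67.7 and 65.1 CPM with GDF10 and at 72.7 and 69.6 CPM with vehicle. Its groups did not overlap and lay the other way round from those of Krr1, with a log2 fold change of -0.10 (95% interval -0.29 to 0.09, adjusted p = 0.857 in edgeR).

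The exons of Krr1 share 352 bases with Glipr1, a gene on the opposite strand that starts downstream and runs back into the Krr1 gene. Glipr1 had 121 and 94 counts with GDF10 and 83 and 103 counts with vehicle, far fewer than Krr1 in each library. Summed over both genes, the counts were 1793 and 2169 with GDF10 and 1129 and 996 with vehicle, and the sum was higher by 0.90 on the log2 scale (adjusted p = 0.0151 in edgeR). Within 150 kb on either side of Krr1 the table listed 11 other genes, and Glipr1 and the lincRNA Gm30624 were the only ones with over 20 counts in some library. Gm30624 had 10 and 16 counts with GDF10 and 28 and 8 with vehicle (adjusted p = 0.910 in edgeR). Which Krr1 transcripts the reads came from was not tested.

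**Figure D2:**
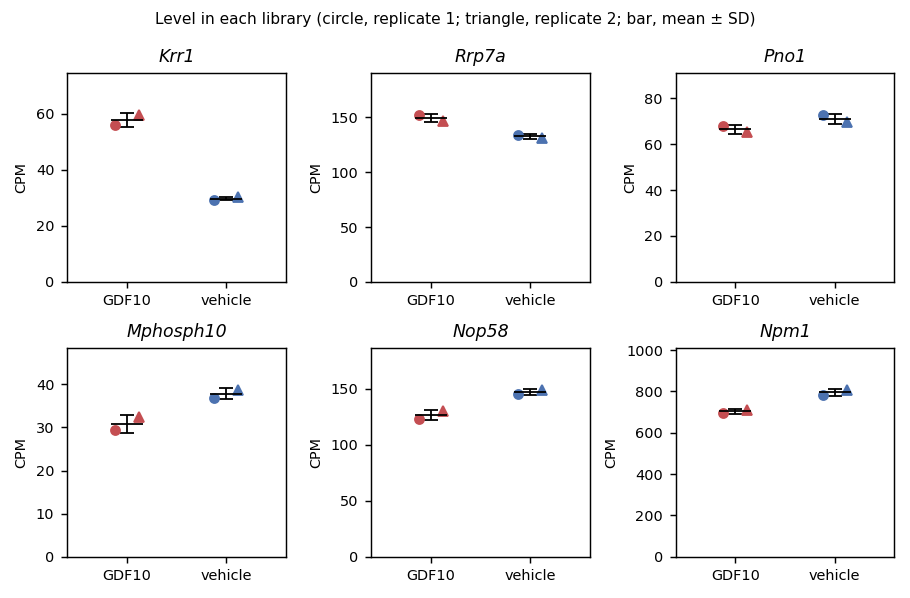
CPM in each library for Krr1, Rrp7a, Pno1, Mphosph10, Nop58 and Npm1, with GDF10 on the left and vehicle on the right of each panel; circles are replicate 1, triangles replicate 2, and bars the mean ± SD of 2 libraries. Krr1 lies at 55.8 and 59.5 CPM with GDF10, above 29.3 and 30.2 CPM with vehicle, while the shifts of the other 5 genes are small against their levels.

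The promoters of 3 genes are shown because they give the only gene of the set that passed the test, its KH-domain relative and the gene with the next highest fold change. The search was for CACGTG, the E-box that MYC with its partner MAX is known to bind; it reads the same on both strands, is printed in capitals, and the rest is in lower case. The windows run from 250 bases before to 50 after the annotated start, and come from RefSeq on GRCm38.p6. The Krr1 window is chr10:111972445-111972744 on the plus strand, the Pno1 window chr11:17211540-17211839 on the minus strand and the Rrp7a window chr15:83122752-83123051 on the minus strand.
Krr1: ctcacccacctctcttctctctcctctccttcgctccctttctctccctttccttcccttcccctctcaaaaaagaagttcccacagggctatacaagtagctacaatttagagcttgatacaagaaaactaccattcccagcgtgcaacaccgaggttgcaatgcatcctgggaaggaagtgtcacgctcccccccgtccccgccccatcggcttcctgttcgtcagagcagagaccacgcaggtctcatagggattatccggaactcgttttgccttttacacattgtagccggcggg
Pno1: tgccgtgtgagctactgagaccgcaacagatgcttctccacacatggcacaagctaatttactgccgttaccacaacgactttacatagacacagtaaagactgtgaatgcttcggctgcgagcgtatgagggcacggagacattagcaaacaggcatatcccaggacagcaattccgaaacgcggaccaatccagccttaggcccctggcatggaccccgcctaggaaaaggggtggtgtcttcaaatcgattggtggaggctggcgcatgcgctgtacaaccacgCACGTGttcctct
Rrp7a: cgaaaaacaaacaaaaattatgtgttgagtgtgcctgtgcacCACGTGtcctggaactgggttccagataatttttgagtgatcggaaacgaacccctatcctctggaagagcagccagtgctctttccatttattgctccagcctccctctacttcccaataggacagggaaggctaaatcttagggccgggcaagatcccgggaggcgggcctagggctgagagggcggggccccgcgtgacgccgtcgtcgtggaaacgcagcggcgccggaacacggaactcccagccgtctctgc
These letters were not in the Krr1 window. They began 37 bases after the annotated start in Pno1 and at position -208 from it in Rrp7a. Of the 41 genes 33 had a promoter in the RefSeq table, 1 each, and 9 of these windows, or 27.3% (exact binomial 95% interval 13.3% to 45.5%), held CACGTG: those of Imp4, Nol11, Pno1, Rrp7a, Utp4, Utp18, Utp20, Wdr43 and Wdr46. The share was 9.62% of 13381 promoters of genes tested and 7.15% of all 32851 promoters of the table, which lists several for some genes. In the 200 bases before the start alone it was 12.1%, or 4 of 33 (exact binomial 95% interval 3.4% to 28.2%), an interval that includes the 7.11% of promoters of genes tested and the 5.26% of all promoters. The 9 genes with the motif had log2 fold changes of -0.19 to 0.17 with a median of -0.03, and the 24 without it had -0.29 to 0.96 with a median of -0.05. A match is a sequence description and not a measured site. Dcaf13, Tbl3, Wdr36, Utp6, Nol6, Npm1, Fbl and Rrp12 had no entry.

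UTP-A binds the new precursor first, and in human cells some of its proteins are also known to be needed for transcription by RNA polymerase I. None of its 6 genes passed the test, 1 was positive and 5 negative, and the median log2 fold change was -0.10, beside 0.00 over all genes tested. Heatr1, a large HEAT-repeat protein, stood at 65.2 and 86.0 CPM with GDF10 and at 81.6 and 90.3 CPM with vehicle. The groups overlapped, with GDF10 replicate 1 lowest, and the log2 fold change was -0.19 (95% interval -0.54 to 0.17); without that library it was 0.00. Wdr43, a WD-repeat protein and the member of UTP-A with the highest level per kilobase of exon, stood at 105.2 and 119.1 CPM with GDF10 and at 118.8 and 123.4 CPM with vehicle, again with overlap. Nol11, Utp4, Utp15 and Wdr75 had log2 fold changes of -0.17 to 0.05.

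UTP-B is built mainly of WD-repeat proteins and binds the start of the precursor together with U3. None of its 6 genes passed, with 3 positive and 3 negative and a median log2 fold change of -0.03. Pwp2, the member with the highest level per kilobase of exon, stood at 82.2 and 100.4 CPM with GDF10, on either side of 88.2 and 88.0 CPM with vehicle. Utp6, a repeat protein of the complex, stood at 80.2 and 81.6 CPM with GDF10 and at 91.5 and 83.2 CPM with vehicle, without overlap (log2 fold change -0.11, 95% interval -0.31 to 0.09). Tbl3, Utp18, Wdr3 and Wdr36 had log2 fold changes of -0.10 to 0.09.

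UTP-C, a small module known from yeast, was represented by Nol6 and Rrp7a. Rrp7a (chromosome 15, 83113433 to 83122801) stood at 152.3 and 146.7 CPM with GDF10 and at 134.3 and 131.1 CPM with vehicle. Its groups did not overlap, with a log2 fold change of 0.17 (95% interval 0.01 to 0.34, unadjusted p = 0.0443, adjusted p = 0.825 in edgeR), so it did not pass over all genes tested. It shares 678 exon bases with Serhl on the opposite strand, and the counts summed over the genes that share exon bases there also had a log2 fold change of 0.17. Nol6 had a log2 fold change of -0.05.

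The U3 snoRNP carries Fbl, the ribose methyltransferase fibrillarin, the paired scaffold proteins Nop56 and Nop58, and Rrp9, which recognises U3 itself. None of the 4 genes passed. Nop58 (chromosome 1, 59684971 to 59719044) stood at 123.3 and 129.9 CPM with GDF10 and at 145.0 and 149.1 CPM with vehicle. Its groups did not overlap, with a log2 fold change of -0.22 (95% interval -0.39 to -0.04, unadjusted p = 0.0202, adjusted p = 0.815 in edgeR). Its scaffold partner Nop56 stood at 160.6 and 168.7 CPM with GDF10 and at 167.8 and 168.9 CPM with vehicle, a log2 fold change of -0.03 (95% interval -0.20 to 0.13), with overlapping groups. The intervals of the pair overlap, and a difference between them was not tested. Fbl had a log2 fold change of 0.04 and Rrp9 one of 0.11.

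Nop56, Nop58 and Ncl also host snoRNA genes, and 7 of these share bases with annotated exons of their hosts. Their counts were at most 10 in any library, 5 of them holding exactly 1 count in all 4 libraries. Over the whole deposited data set 456 genes held exactly 1 count in every library, 67 of them snoRNA genes, so a count of 1 was not read as expression.

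The MPP10 complex links U3 to the precursor through Imp3 and Imp4, and is described here with Utp3, its partner known from yeast as Sas10. None of the 4 genes passed. Mphosph10, the scaffold after which the complex is named (chromosome 7, 64376527 to 64392268), stood at 29.4 and 32.3 CPM with GDF10 and at 36.9 and 38.7 CPM with vehicle. Its groups did not overlap, and its log2 fold change of -0.29 was the lowest of the 41 (95% interval -0.53 to -0.06, unadjusted p = 0.0191, adjusted p = 0.815 in edgeR). Utp3 stood at 70.6 and 63.2 CPM with GDF10 and at 69.7 and 66.1 CPM with vehicle, with overlap. Imp3 and Imp4 had log2 fold changes of 0.07 and -0.03, with intervals of -0.15 to 0.30 and -0.23 to 0.17.

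Of the 6 enzymes and their partners none passed, with log2 fold changes of -0.14 to 0.08. Rcl1, which in yeast binds the GTPase Bms1 and is delivered by it to the precursor, stood at 60.5 and 61.2 CPM with GDF10 and at 61.2 and 59.5 CPM with vehicle. These 4 values overlapped closely, with a 95% interval of -0.18 to 0.20 on the log2 scale. Emg1, a methyltransferase that modifies one pseudouridine of the small-subunit RNA, stood at 96.5 and 80.8 CPM with GDF10 and at 94.0 and 101.0 CPM with vehicle, and here GDF10 replicate 2 was the low library. Bms1, the helicase Dhx37, its activator in yeast Utp14a, and the RNA acetyltransferase Nat10 had log2 fold changes of -0.13, 0.08, -0.03 and -0.11.

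The 8 other processome factors were all negative, between -0.26 and -0.01 on the log2 scale, and none passed. Wdr46, a WD-repeat protein, stood at 92.1 and 97.0 CPM with GDF10 and at 95.7 and 94.0 CPM with vehicle, the GDF10 libraries lying on either side of the vehicle ones (log2 fold change -0.01, 95% interval -0.18 to 0.17). Rrp12, a HEAT-repeat protein known in yeast for export of both ribosomal subunits, had the largest spread of the set, with 16.9 and 28.0 CPM with GDF10 and 23.8 and 29.9 CPM with vehicle. Its 95% interval of -1.07 to 0.55 was the only one besides that of Krr1 that reached beyond a 1.5-fold change, and without GDF10 replicate 1 its log2 fold change was 0.06 in place of -0.26. Nop14 and its yeast partner Noc4l, the WD-repeat proteins Nol10 and Dcaf13, the long HEAT-repeat protein Utp20 and the S1-domain protein Pdcd11 made up the rest of the group, with -0.19 to -0.03.

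The 3 nucleolar proteins had the highest CPM of the set, and the highest levels per kilobase of merged exons, and all lay lower with GDF10 in every library, though none passed the test. Npm1, nucleophosmin, a chaperone of the outer nucleolus (chromosome 11, 33152287 to 33163206), stood at 695.6 and 711.3 CPM with GDF10 and at 782.2 and 807.1 CPM with vehicle. The groups did not overlap (log2 fold change -0.18, 95% interval -0.33 to -0.02, unadjusted p = 0.0319, adjusted p = 0.825 in edgeR). Ncl, nucleolin, an RNA-binding protein of rRNA transcription and processing, stood at 890.6 and 1049.6 CPM with GDF10 and at 1093.8 and 1161.6 CPM with vehicle. Its log2 fold change was -0.22 (unadjusted p = 0.0508, adjusted p = 0.825 in edgeR), and it was -0.10 without GDF10 replicate 1. Nolc1, which binds snoRNPs, had one of -0.10. Mouse Npm1 is known to have processed pseudogenes, and how reads that match several copies were counted is not given in the sources used here, so its level is uncertain.

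**Figure D3:**
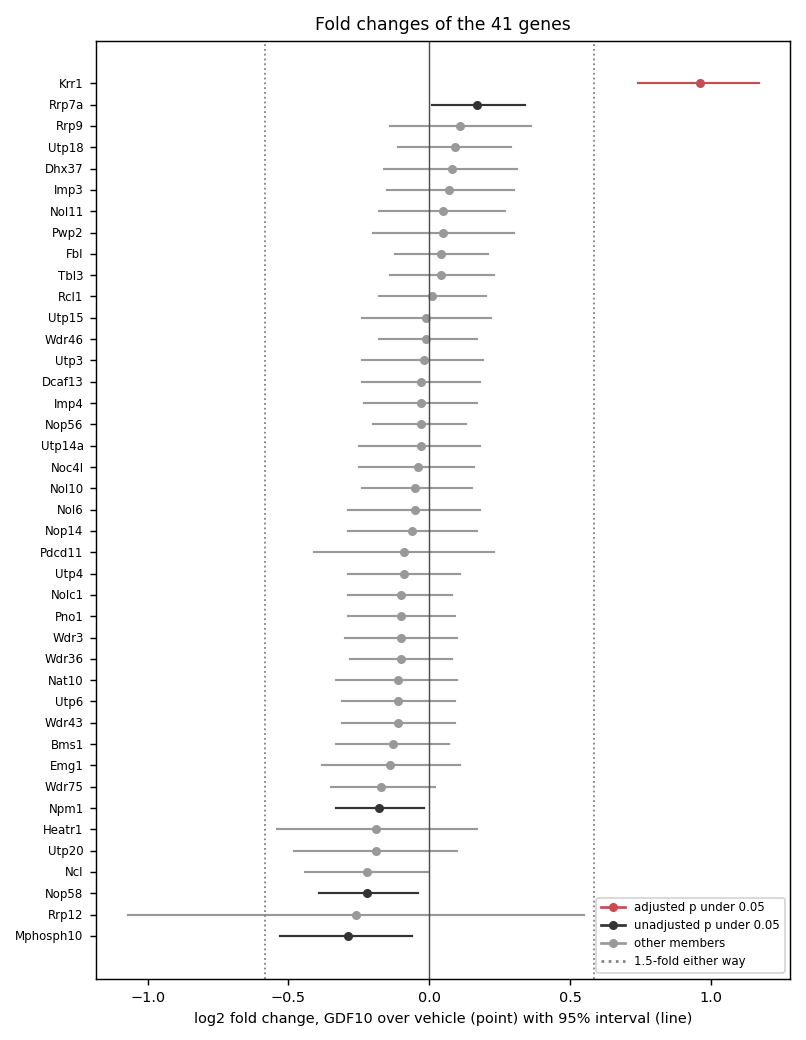
Log2 fold change of GDF10 over vehicle for the 41 genes, with 95% intervals from edgeR's quasi-likelihood fit; red marks an adjusted p under 0.05, black an unadjusted p under 0.05, and dotted lines a 1.5-fold change either way. Only the interval of Krr1 lies to the right of 0.74; that of Rrp12, from -1.07 to 0.55, is the widest.

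Across the set, 39 of 41 genes, or 95.1%, had a 95% interval within 1.5-fold of no change, against 60.9% of all genes tested. The 2 shares are not alike in precision. The median standard error was 0.09 in the set, whose lowest count was 506, and 0.13 over all genes tested. The half-width of the interval over the 40 genes other than Krr1 had a median of 0.20 on the log2 scale and ran from 0.16 to 0.81. At an unadjusted p under 0.05 there were 5 genes, or 12.2%, against 5.94% of all genes tested. Of these 2 were higher (Krr1 and Rrp7a), where 2.44% of all genes were, and 3 lower (Mphosph10, Nop58 and Npm1), where 3.49% were. The number was 1, Krr1, in the fit with the GC content trend removed and in each fit that left out a vehicle library. Groups that did not overlap were seen in 16 genes, or 39.0%, against 38.2% of all genes tested. Of these 3 were higher with GDF10 (Krr1, Rrp7a and Utp18) and 13 lower, where 18.8% and 19.4% of all genes tested were separated in those directions.

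More genes of the set were negative than positive, 30 of 41 or 73.2%, against 49.2% of all genes tested, with a median log2 fold change of -0.05. Their summed level was 4757.2 and 5169.3 CPM with GDF10, against 5254.0 and 5382.1 CPM with vehicle. GDF10 replicate 1 held the lowest of the 4 values in 27 of the 41 genes, or 65.9%, against 30.5% of all genes tested. Without that library 20 of the 41 genes, or 48.8%, were negative, beside 50.6% of all genes, and the median was 0.00. Without GDF10 replicate 2 32 genes, or 78.0%, were negative, beside 49.8% of all genes, and the median was -0.10. In that fit 13 of the 41 genes had an unadjusted p under 0.05, where 15.1% of all genes did. Without GDF10 replicate 1 the sign count and the median of the set thus gave no direction. The summed level in GDF10 replicate 2, 5169.3 CPM, still lay below both vehicle libraries. The 3 nucleolar proteins made up 1979.9 CPM of it, against 2100.6 and 2191.3 CPM with vehicle. Both GDF10 libraries lay below both vehicle libraries in 13 genes and above them in 3. Krr1 stayed higher when either GDF10 library was left out, with a log2 fold change of 0.90 to 1.03 over all 17 alternatives.

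The low values of GDF10 replicate 1 went with transcript length, and GDF10 replicate 2 went the other way. Each library's log2 deviation from the gene's mean over the 4 libraries was set against principal transcript length. In the set the Spearman correlation was -0.51 for GDF10 replicate 1 and 0.59 for GDF10 replicate 2. For vehicle replicates 1 and 2 it was -0.13 and 0.24. Over all genes tested it was -0.37 and 0.10 for the GDF10 libraries and 0.12 and 0.23 for the vehicle libraries. Across the 41 genes the log2 ratio of GDF10 replicate 1 to replicate 2 had a Spearman correlation of -0.68 with the length of the principal transcript, and that of the vehicle replicates one of -0.32; over all genes tested these values were -0.32 and -0.10; genes of the same libraries are not independent. In 4 genes, Heatr1, Utp20, Pdcd11 and Ncl, the annotated principal transcript was over 6000 bases. Their ratios between the GDF10 replicates were -0.40 to -0.24 with a median of -0.36, against a median of -0.08 in the other 37. Between the vehicle replicates the medians were -0.08 and -0.01. These lengths are of the longest transcript so marked, and which transcripts the reads came from was not tested. Annotated Ncl exons share 133 bases with the snoRNA gene Snora75, so the length of Ncl is uncertain. Utp20, for example, stood at 139.4 and 177.3 CPM with GDF10 and at 175.6 and 186.1 CPM with vehicle. With the trend with merged exon length removed from each library, 28 of the 41 genes, or 68.3%, were negative, beside 45.2% of all genes. In that fit the log2 fold change of Krr1 was 0.99 (adjusted p = 0.00690 in edgeR). Removing the trend with principal transcript length in its place also left 28 genes negative, beside 44.7% of all genes. There the log2 fold change of Krr1 was 1.02. RNA quality was not tested.

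**Figure D4:**
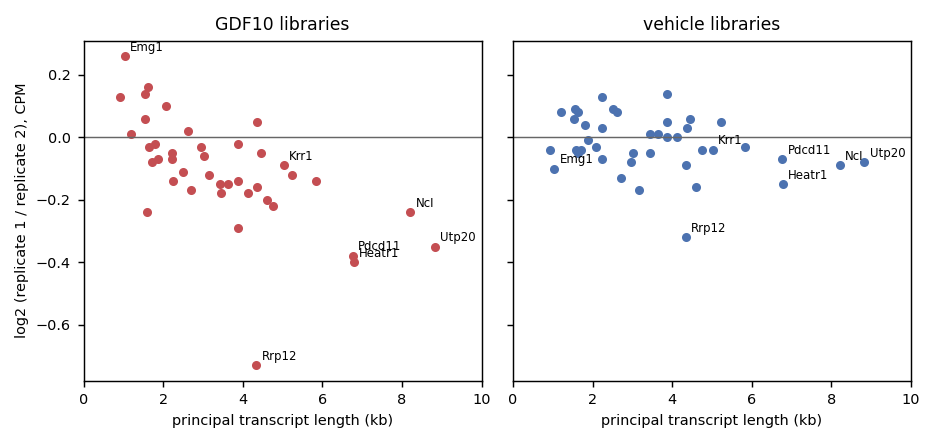
Log2 ratio of CPM in replicate 1 to replicate 2 for the 41 genes against principal transcript length in kilobases, for the GDF10 libraries on the left and the vehicle libraries on the right. The points fall with length in the GDF10 panel, where Heatr1, Pdcd11, Utp20 and Ncl lie between -0.40 and -0.24 and Rrp12 at -0.73, and stay nearer 0 in the vehicle panel.

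Per kilobase of merged exons the set spanned 5.68 CPM per kb for Rrp12 to 281.1 CPM per kb for Npm1, as means over the 4 libraries. Npm1, at 261.0 to 302.9, and Ncl, at 87.4 to 114.0 CPM per kb, did not overlap each other or any other gene. Nolc1 followed at 49.7 to 56.6 CPM per kb. Below it the ranges of Utp3, Nop56 and Pno1 overlapped at means of 41.4, 40.6 and 40.0 CPM per kb, and the order within that group is not resolved. Krr1 was among the lowest, at 7.33 CPM per kb and place 38 of 41, and its range over the libraries, 4.91 to 9.99, was wide because the groups differ. Merged exons include retained introns of minor transcripts, and per kilobase of the principal transcript Fbl moved to place 3 at 125.8 CPM per kb and Dcaf13 to 45.2 CPM per kb, against 6.48 per kilobase of merged exons. Npm1 stayed first on both scales, while the ranges of Ncl and Fbl overlapped on the second. That scale takes the longest annotated principal transcript, 8202 bases for Ncl, and whether the cells made that transcript was not tested. The order of Ncl and Fbl is therefore not resolved. Rrp12 had the lowest mean over the 4 libraries on both scales, but its range overlapped that of Krr1 on both and those of Dcaf13 and Utp15 per kilobase of merged exons. In the groups taken apart, Krr1 stood at 9.68 and Rrp12 at 5.17 CPM per kb of merged exons with GDF10, against 4.99 and 6.19 CPM per kb with vehicle, where Krr1 was the lower.

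**Figure D5:**
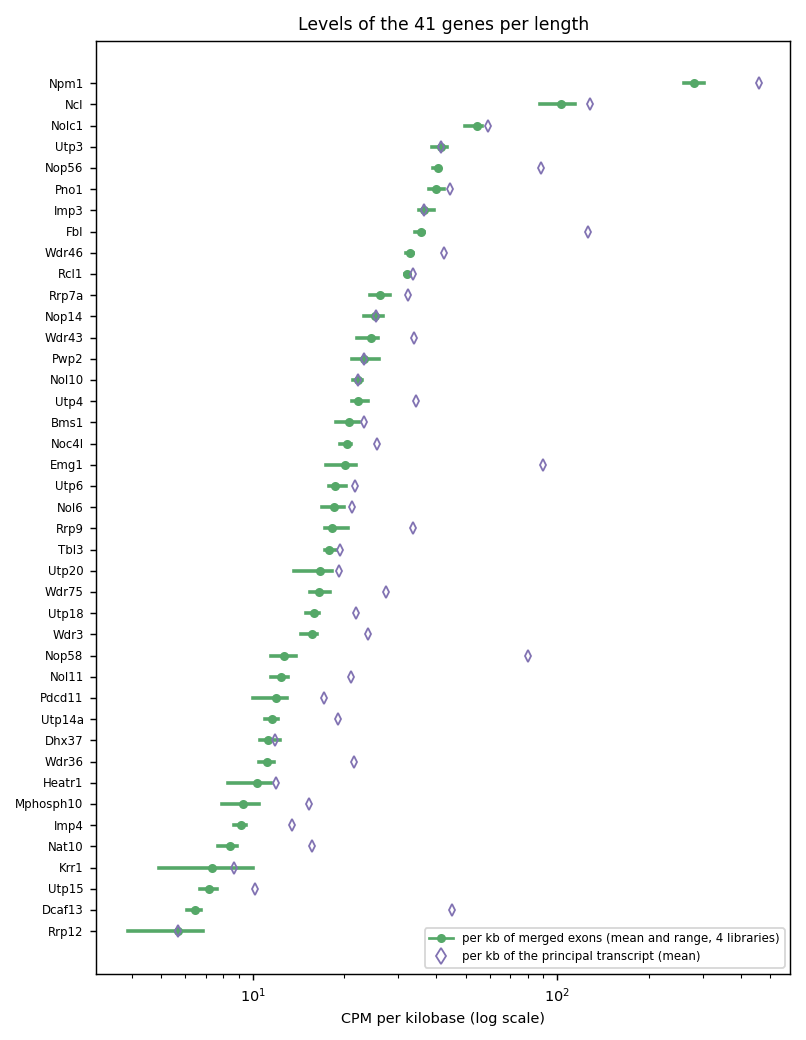
Level of the 41 genes in CPM per kilobase on a log axis, per kilobase of merged exons (green, mean with the range over 4 libraries) and of the principal transcript (open diamonds, mean). Npm1 at 281.1 and Ncl at 103.0 CPM per kb of merged exons stand above the rest, and the diamonds of Fbl, Nop58, Emg1 and Dcaf13 lie far from their green points.

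Of the 41 genes 10, or 24.4%, shared exon bases with another tested gene, against 24.9% of all genes tested. When counts were summed over genes that share exon bases, the Krr1 locus was the only one of the set that passed. The widest change was that of Heatr1, which shares 155 bases with Lgals8 and whose log2 fold change of -0.19 became -0.03 in the sum.

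The rest of ribosome biogenesis was examined in 6 lists. With edgeR 0 of their 133 tested genes passed in either direction, where 0.162% of all genes tested did. With DESeq2 the count was also 0. At an unadjusted p under 0.05 in edgeR 2 were higher and 6 lower, where 2.44% and 3.49% of all genes tested were. The number that passed was 1 without GDF10 replicate 1 (Wdr74, lower) and 4 without GDF10 replicate 2 (Ddx21, Mdn1 and Tsr1 lower, Wdr74 higher). Wdr74, a large-subunit factor, stood at 31.0 and 2.07 CPM with GDF10 and at 6.30 and 7.74 CPM with vehicle, its GDF10 libraries on opposite sides of the vehicle ones. Among 33 tested small-subunit factors outside the 41 genes the median log2 fold change was -0.03, and Esf1, a nucleolar processing factor, stood at 22.6 and 20.7 CPM with GDF10 and at 27.5 and 26.3 CPM with vehicle (adjusted p = 0.815 in edgeR). Dnttip2, a processome-associated protein, stood at 62.4 and 59.8 CPM with GDF10 and at 70.8 and 72.8 CPM with vehicle, a log2 fold change of -0.23. Among 55 factors of the large subunit the median was -0.03, and Rbm28 stood at 86.2 and 85.0 CPM with GDF10 and at 101.7 and 97.5 CPM with vehicle (log2 fold change -0.22). The 15 genes of RNA polymerase I and its factors had a median of -0.04 and a range of -0.17 to 0.18. The 6 genes of the H/ACA snoRNP, which guides pseudouridylation, had a median of 0.06. Among 13 genes of the RNA exosome, which trims the precursor, the median was -0.04; Exosc2 stood at 25.7 and 27.4 CPM with GDF10 and at 34.8 and 35.0 CPM with vehicle, without overlap (log2 fold change -0.40, unadjusted p = 0.00407, adjusted p = 0.620 in edgeR). Dis3, its nuclease, stood at 79.9 and 91.6 CPM with GDF10 and at 103.7 and 102.3 CPM with vehicle (log2 fold change -0.26). In Esf1, Dnttip2, Rbm28, Exosc2 and Dis3 both GDF10 libraries lay below both vehicle libraries, but these genes were picked for a low unadjusted p. Over the 133 tested genes of the 6 lists the groups did not overlap in 32 lower and 21 higher with GDF10. Of all genes tested 19.4% and 18.8% did so. The 11 tested genes of the MYC network had a median of 0.06, and Mlx, a partner of MYC-related factors, stood at 27.0 and 28.5 CPM with GDF10 and at 22.2 and 19.5 CPM with vehicle (log2 fold change 0.41, adjusted p = 0.727 in edgeR). Myc itself stood at 91.7 and 79.6 CPM with GDF10 and at 71.4 and 92.4 CPM with vehicle, with overlapping groups and a 95% interval of -0.29 to 0.42 on the log2 scale.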

How the data were processed

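The data are RNA-seq of 4 C2C12 libraries, 2 given GDF10 and 2 given vehicle for 6 h. The authors deposited raw whole-number counts, 1 value per gene and library. The submitters' processing notes name StringTie 1.3.3b, HISAT2 2.0, Trimmomatic 0.36, DESeq2 1.12.4, bedtools 2.26.0, FastQC 0.11.2 and build mm10. Which program counted reads, on what annotation and with what use of strand, is not given in the sources used here. Per the labels' protocols RNA came from a Trizol extraction followed by DNase. Table columns named Con were taken as vehicle, the only control group.

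Symbols, positions and exon lengths came from GENCODE M21 on mm10 (51633 of 51826 identifiers matched). The principal transcript is the longest that APPRIS marks as principal. Where none is so marked it is the longest coding transcript, or else the longest of the gene. The test was edgeR 4.0.16 under R 4.3.3: filterByExpr kept 15467 genes with 99.9% of counts, libraries were scaled by TMM (factors 0.995 to 1.00), and glmQLFit and glmQLFTest with robust dispersions compared the groups without covariates. Standard errors were derived as the fold change over the root of the F statistic. The common dispersion gave a coefficient of variation of 14.3% between replicates. A count of 3 is 0.0840 to 0.101 CPM; this and the binomial intervals cover counting error only. An exact permutation test of 2 against 2 cannot go below 0.333 and was not used. Alternatives used DESeq2 1.42.0 and limma 3.58.1, among others. The fit was tested on simulated data.

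The 41 genes, the lists and the tests were chosen with earlier results of these data known. Values per library are given for those of the 41 genes with an adjusted or unadjusted p under 0.05 and, in each role group, for the gene with the largest fold change and that with the highest level per kilobase; in each other list for up to 2 genes with an unadjusted p under 0.05; and for Myc. Utp20, Wdr74 and the genes named only by their fold change were added after their values were seen. The planned protein comparison was not run because no protein table was used here.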

Additional observations from a re-analysis of the deposited data

How the results depend on the processing

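Krr1 kept its direction in all 17 alternatives and its call in 14. The set held 0 called genes with limma-voom and with non-robust dispersions, and 0 to 1 when 1 library was left out, the 0 being without vehicle replicate 1; the cause was not tested. Over all genes the number called was 56 with DESeq2, 11 with limma-voom, 9 with non-robust dispersions, 13 with counts summed over genes sharing exon bases, where fewer features were tested, and 27 to 224 when 1 library was left out (for GDF10, 112 without replicate 1 and 224 without replicate 2; for vehicle, 27 and 44). Genes of the set with an unadjusted p under 0.05 numbered 8 with the replicate block, 1 with the GC content trend removed and 1 to 13 when 1 library was left out, where the share of all genes was 8.51%, 4.55% and 3.46% to 15.1%. The median log2 fold change of the set was -0.10 to 0.00 when 1 library was left out. In the 6 pathway lists 0 to 4 genes passed when 1 library was left out: 1 without GDF10 replicate 1 and 4 without GDF10 replicate 2. The share of promoters with CACGTG was 12.1% in the 200 bases before the start, which leaves out 5 of the 9 matches by construction.

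The labels do not say that replicate numbers pair the libraries. Differences between replicates 1 and 2 in the GDF10 and vehicle groups had a Pearson correlation of 0.07 over 15467 genes. With the replicate block Krr1 had an adjusted p of 0.0140 in edgeR, and the block with the exon length trend removed gave 0.0104; the replicate block gave 23 calls over all genes, against 25 without it.

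With 2 libraries a group, the 95% interval reached 0.20 on the log2 scale to either side at the median gene other than Krr1. Removing the principal transcript length trend was chosen after seeing the data.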
